A study of Mus musculus with 4 samples.

Results

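The globin and erythroid genes are 8 genes that serve the red blood cell, namely Hba-a1, Hba-a2, Hbb-bt, Alas2, Slc4a1, Epb42, Ahsp and Bpgm. They were chosen by name, as genes whose RNA in a tissue comes largely from blood and young red cells. Of the 20145 genes that the arrays' probes could be given, 7 of these 8 had a probe, each with 1 probe, among 55681 probes in all. No probe was matched to Ahsp. Epb42 was not well above background on any array, so the comparison of the groups covered 6 of the 8 genes among the 24970 probes tested, and all 6 were well above background on all 4 arrays.

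The samples were brown adipose tissue (BAT) from 4 male mice, aged 8 weeks and taken 12 h after an intraperitoneal injection. All 4 mice, controls included, were Tg mice of the maP2::Fv2E-PERK line, on a C57BL/6N background. This line expresses Fv2E-PERK, an eIF2α kinase that the synthetic dimerizer AP20187 (AP) switches on to start the integrated stress response. A fragment of the aP2 (Fabp4) promoter drives it, which is active in white and brown adipocytes and is known to be active in macrophages as well. The vehicle group was 2 mice given ethanol, PEG-400 and Tween-20 in water, and the AP group was 2 mice given AP in it, at 1 ng/g in the sample labels (the study's text gives a higher dose). No arrays of wild-type mice were used here, so AP was compared with vehicle only within Tg mice. The RNA of each mouse was labeled with 1 dye and hybridized to its own array, and the processed signal of each spot was scaled to the 75th percentile of its array, so each level below is a log2 ratio of a signal to that percentile. Such levels compare 1 probe between mice and not 1 probe with another, because probes differ in how brightly they bind.

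Mature red cells of mammals have lost their nucleus, and reticulocytes, the youngest red cells in the circulation, still hold RNA, most of which encodes the globin chains. Hemoglobin is built from alpha and beta chains around heme, and heme synthesis in erythroid cells begins with ALAS2. Band 3 and protein 4.2 tie the membrane of the red cell to its skeleton. BAT is densely supplied with vessels, so blood that stays in the dissected tissue contributes its RNA to an extract of the whole tissue.

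The upstream sequences of the globin genes are shown with those of Alas2 and Bpgm, because the levels of these genes were all highest in the same mouse. They are the 120 bases before the transcript start in RefSeq on GRCm38.p6, written 5′ to 3′ along the strand of the gene. Capitals mark matches on either strand to AGATAA (letters bound by GATA factors), CCNCNCCC (letters bound by erythroid Krüppel-like factors) and CCAAT (the CCAAT box), none of which overlapped a match to another of them.

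Hba-a1, chr11:32283552-32283671 (plus strand): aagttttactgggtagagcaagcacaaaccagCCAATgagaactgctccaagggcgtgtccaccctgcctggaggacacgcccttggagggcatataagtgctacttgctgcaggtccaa

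Hba-a2, chr11:32296372-32296491 (plus strand): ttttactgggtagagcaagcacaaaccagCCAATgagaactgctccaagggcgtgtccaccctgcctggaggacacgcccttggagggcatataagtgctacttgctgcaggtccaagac

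Hbb-bt, chr7:103813924-103814043 (minus strand): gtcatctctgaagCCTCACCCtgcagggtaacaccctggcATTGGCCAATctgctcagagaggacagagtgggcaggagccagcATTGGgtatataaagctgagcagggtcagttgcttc

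Hbb-bs, chr7:103827929-103828048 (minus strand): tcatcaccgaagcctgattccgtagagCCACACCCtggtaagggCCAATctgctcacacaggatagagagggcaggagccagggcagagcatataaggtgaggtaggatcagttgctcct

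Alas2, chrX:150547297-150547416 (plus strand): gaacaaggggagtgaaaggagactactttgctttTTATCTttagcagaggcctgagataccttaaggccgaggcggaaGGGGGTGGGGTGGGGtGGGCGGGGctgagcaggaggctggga

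Bpgm, chr6:34476236-34476355 (plus strand): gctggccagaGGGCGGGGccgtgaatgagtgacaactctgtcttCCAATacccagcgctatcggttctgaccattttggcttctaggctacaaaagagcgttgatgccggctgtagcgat

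The sequences before Hba-a1 and Hba-a2 were the same over a run of 117 of the 120 bases, offset by 3, and over 247 of the 250 bases before their starts. Those before Hbb-bt and Hbb-bs shared no run longer than 14 bases. CCAAT lay in the 120 bases of all 4 globin genes shown and of Bpgm and not in those of Alas2, and 21.3% of 32851 promoters in the table hold it in this window. CCNCNCCC lay before Hbb-bt, Hbb-bs, Alas2 and Bpgm (34.6% of promoters), and AGATAA before Alas2 (4.36%). A match describes these letters and is not a measured binding site. Slc4a1, Hbb-b2 and Ahsp had no entry in the table, and Epb42, which was not well above background, had none of these letters in its 120 bases.

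The tissue label was checked first. All 12 brown adipocyte markers were well above background on all 4 arrays. Ucp1, which uncouples respiration in brown fat, was at 10.41 and 9.66 with vehicle and at 9.66 and 10.25 with AP. Trib3 and Ddit3, targets of the integrated stress response, checked the treatment. Trib3 was at 2.78 and 2.33 with vehicle and at 6.26 and 8.01 with AP, a log2 difference of 4.57 (SE 0.63, adjusted p = 0.80, limma). Ddit3 was at 2.18 and 1.86 with vehicle and at 3.03 and 4.22 with AP, a log2 difference of 1.61 (SE 0.45, adjusted p = 0.80). Both AP-treated mice lay above both vehicle-treated mice for either gene, although neither passed the adjusted threshold.

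The vehicle-treated mice lay at opposite ends of the 4 arrays in skeletal muscle genes. Vehicle mouse 1 had the lowest level of all 12 skeletal muscle genes listed, and vehicle mouse 2 had the highest level of all 12. Acta1, skeletal muscle actin, was at 2.49 and 6.81 with vehicle and at 6.05 and 5.11 with AP. The summed level of the 12 genes was 56.7 and 1078 with vehicle and 690 and 384 with AP, in multiples of the 75th percentile of each array, and Tnnc2 was the brightest of them. The comparisons of the globin and erythroid genes are therefore also given with vehicle mouse 1 or vehicle mouse 2 left out. On the slide, vehicle mouse 2 was alone in column 2, vehicle mouse 1 took the first position of column 1 and the AP-treated mice took its positions 3 and 4, and place on the slide cannot be told apart from treatment.

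The alpha-globin genes had their highest level in vehicle mouse 1. Hba-a2 was at 10.63 and 9.98 with vehicle and at 9.78 and 10.21 with AP. Hba-a1 was at 8.99 and 8.37 with vehicle and at 7.96 and 8.49 with AP. For both genes AP mouse 2 lay between the vehicle-treated mice, so the groups overlapped. The log2 difference of AP from vehicle was -0.31 for Hba-a2 (SE 0.32, 95% interval -1.17 to 0.55, adjusted p = 0.86, limma). It was -0.46 for Hba-a1 (SE 0.34, 95% interval -1.35 to 0.43, adjusted p = 0.82). Neither difference was larger than the gap between the vehicle-treated mice. Vehicle mouse 1 exceeded vehicle mouse 2 by 1.57-fold for Hba-a2 and by 1.54-fold for Hba-a1. These genes encode nearly the same chain, and how far the probe of one also binds the RNA of the other was not tested.

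The beta-globin gene Hbb-bt followed the same order. It was at 8.01 and 7.05 with vehicle and at 6.95 and 7.25 with AP. Vehicle mouse 1 was 1.95-fold above vehicle mouse 2, while the other 3 mice lay close together. The log2 difference of AP from vehicle was -0.43 (SE 0.39, 95% interval -1.46 to 0.60, adjusted p = 0.84). Other beta-globin genes were listed beside the members. Hbb-b2 was at 6.13 and 5.32 with vehicle and at 5.05 and 5.41 with AP, and Hbb-bs was at 4.84 and 3.75 with vehicle and at 4.00 and 4.23 with AP. Both were again highest in vehicle mouse 1 with overlapping groups, and their log2 differences were -0.49 (SE 0.35) and -0.18 (SE 0.42). The adult beta-globin genes are also close copies of each other, so their probes may not be independent readings.

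Genes of embryonic and other minor globin chains were listed as well. Hbb-bh1, Hbb-bh2, Hbb-y, Hba-x and Hbq1b were not well above background on any array, Hbq1a was so on 1 array, and no probe was matched to Hbb-b1. The globin genes that could be tested were therefore those of adult chains.

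Alas2, the erythroid enzyme that starts heme synthesis, was at 2.93 and 1.99 with vehicle and at 1.85 and 2.30 with AP. Vehicle mouse 1 was 1.91-fold above vehicle mouse 2, and AP mouse 2 lay between them. The log2 difference of AP from vehicle was -0.38 (SE 0.40, 95% interval -1.43 to 0.66, adjusted p = 0.86). Alas1, the form of the enzyme used by most other tissues, was at 8.01 and 8.03 with vehicle and at 7.38 and 7.90 with AP. It had no such gap between the vehicle-treated mice, and its log2 difference was -0.38 (SE 0.26, adjusted p = 0.82). This difference was -0.12 without AP mouse 1, and another probe of Alas1 gave -0.11.

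Bpgm, which makes the phosphate ester that lowers the affinity of hemoglobin for oxygen, was at 2.56 and 1.97 with vehicle and at 1.94 and 2.09 with AP. Vehicle mouse 1 was again the highest, 1.5-fold above vehicle mouse 2. The log2 difference of AP from vehicle was -0.25 (SE 0.28, 95% interval -1.0 to 0.49, adjusted p = 0.86).

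Slc4a1, which encodes band 3, the anion exchanger of the red cell, was at -1.09 and -1.94 with vehicle and at -2.28 and -2.37 with AP. It was the only one of the 6 genes whose groups did not overlap. The log2 difference was -0.81 (SE 0.34, 95% interval -1.72 to 0.10), with a limma p of 0.071 before and 0.80 after adjustment. An exact two-sided permutation test over the 4 mice gave p = 0.333, which is the smallest p that 2 mice against 2 allow. Without vehicle mouse 1 the difference was -0.39, without vehicle mouse 2 it was -1.23, and with normexp background correction it was -0.22. Epb42, which encodes protein 4.2, was at -5.76 and -6.02 with vehicle and at -5.79 and -5.66 with AP, not well above background on any array, and was not tested.

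**Figure D1:**
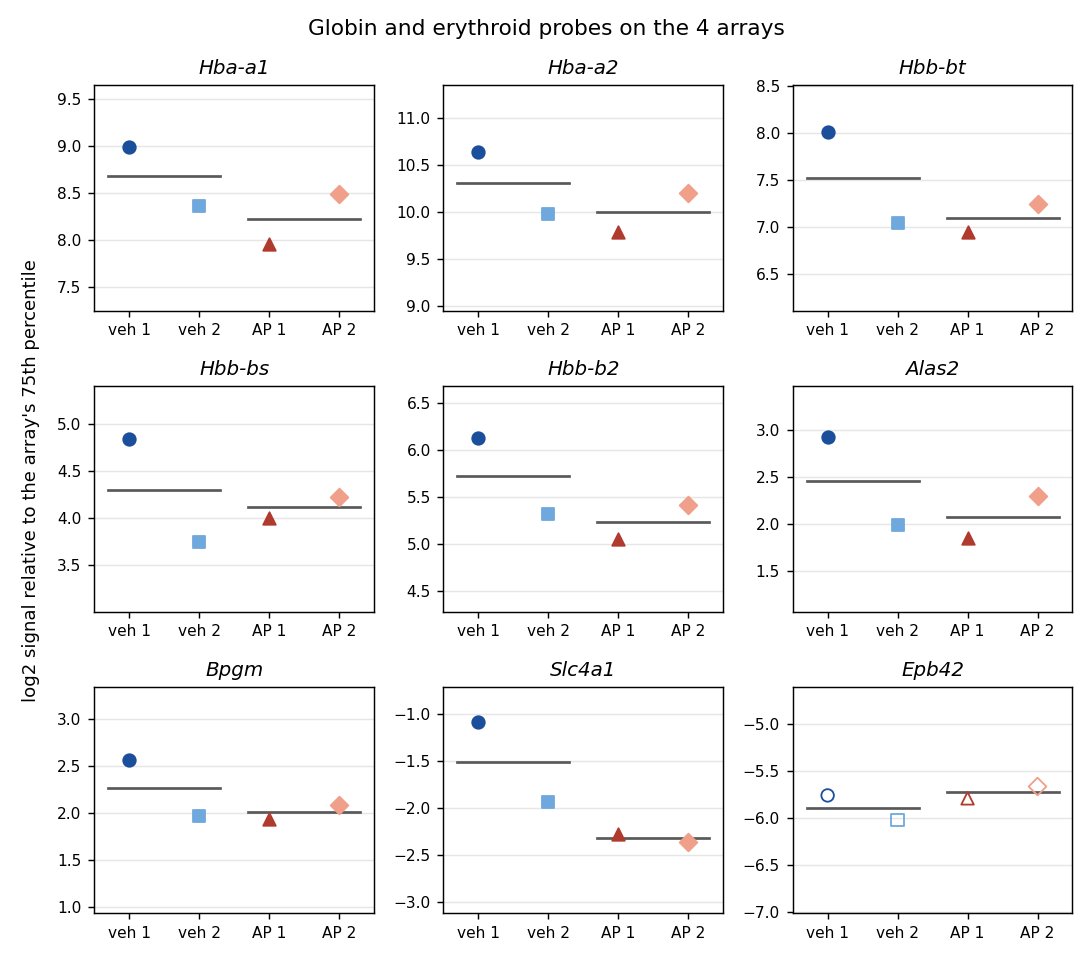
Level of each globin and erythroid probe, with Hbb-bs and Hbb-b2, on the 4 arrays (y axis, log2 level as defined above, each panel spanning the same range of log2 units around its own mean). Each point is 1 mouse, lines are group means, open points are not well above background, and vehicle mouse 1 (veh 1) lies highest in every panel with filled points.

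Vehicle mouse 1 had the highest level of the 4 arrays for 6 of 6 genes, against 30.1% of all tested probes. AP mouse 1 had the lowest level for 5 of the 6, and AP mouse 2 for Slc4a1. The difference of vehicle mouse 1 from vehicle mouse 2 ranged from 0.59 for Bpgm to 0.96 for Hbb-bt on the log2 scale. Across all tested probes this difference had a median of 0.11, with 5th and 95th percentiles of -0.99 and 0.92, and 13.5% of probes reached the smallest value among the 6 genes. After each gene was centred on its own mean, the mean of the 6 genes was 0.60 and -0.16 with vehicle and -0.37 and -0.07 with AP. Their summed level was 2368 and 1479 with vehicle and 1261 and 1701 with AP, so that vehicle mouse 2 lay between the AP-treated mice. Hba-a2 has the brightest probe, so this sum follows Hba-a2 most, and sums of this kind serve only to compare mice. In RNA of a whole tissue, more cells of a type and more RNA per cell cannot be told apart. The muscle signal was lowest in vehicle mouse 1. It was highest in vehicle mouse 2, while the lowest level of 5 of the 6 genes was in AP mouse 1. The part of muscle in this pattern was not tested.

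**Figure D2:**
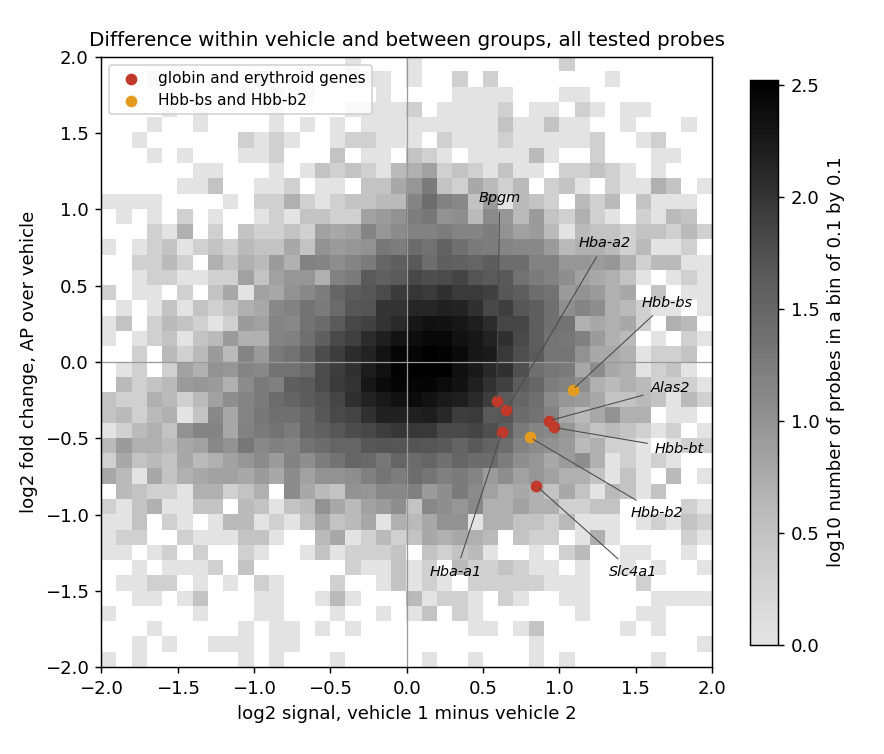
All tested probes by the log2 difference of vehicle mouse 1 from vehicle mouse 2 (x axis) and the log2 fold change of AP over vehicle (y axis), with the log10 number of probes in each bin in grey and probes beyond 2 log2 units on either axis outside the plot. The 6 globin and erythroid genes (red) and Hbb-bs and Hbb-b2 (orange) lie to the right of 0.5 and below 0, inside the cloud of all probes.

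For the comparison of AP with vehicle, 0 of the 6 genes passed an adjusted p of 0.05 (limma), and neither did any of the 24970 probes (0%). The smallest adjusted p of any probe was 0.80. Before adjustment, 0 of the 6 genes had a limma p under 0.05, against 2.77% of all probes in the direction of lower with AP and 3.3% in the direction of higher. Both AP-treated mice lay below both vehicle-treated mice for 1 of the 6 genes, Slc4a1, against 20.4% of all probes, a share near that background. The AP mean was below the vehicle mean for 6 of 6 genes, against 51.4% of all probes. The median log2 difference of the 6 genes was -0.41, against -0.01 over all probes. The 6 genes were read in the same 4 mice, 1 of which was the highest for all of them, so they are not separate readings of the treatment.

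The median moved to 0.028 when vehicle mouse 1 was left out and to -0.81 when vehicle mouse 2 was left out. Without vehicle mouse 1 the difference became 0.02 for Hba-a2, 0.05 for Hbb-bt, 0.08 for Alas2 and 0.04 for Bpgm. It stayed below 0 for Hba-a1, at -0.14, and for Slc4a1. Vehicle mouse 1 was the highest for all 6 genes also with normexp background correction, quantile normalization, the median of each array as scale and the log2 table of the authors. The AP mean was below the vehicle mean for all 6 under each of these. In the table of the authors the groups did not overlap for 5 of the 6 genes, all lower with AP, against 32.8% of all probes lower and 10.3% higher in that table, where the median log2 difference of all probes was -0.17.

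**Figure D3:**
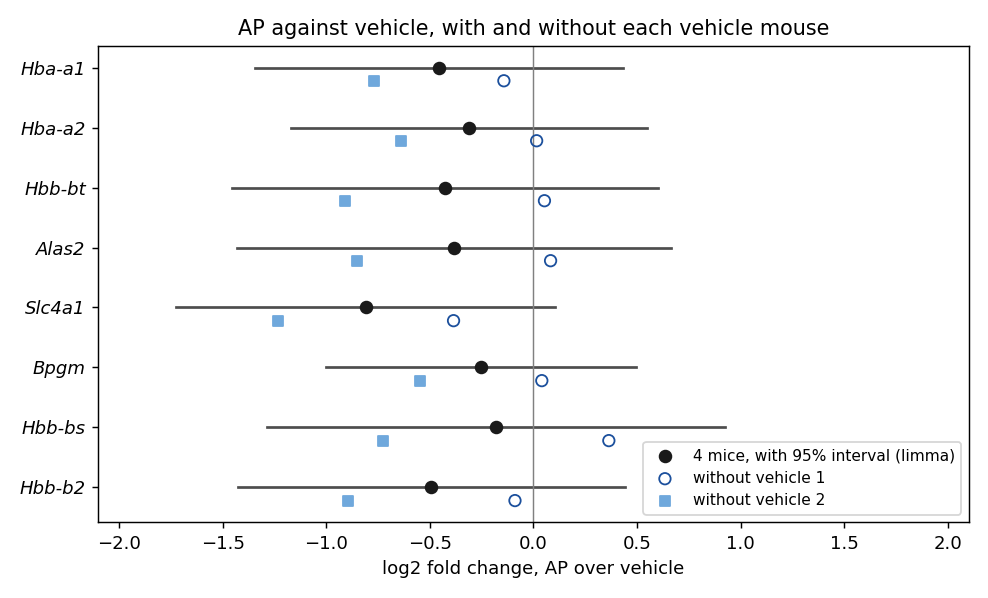
Log2 fold change of AP over vehicle (x axis) of the 6 globin and erythroid genes, with Hbb-bs and Hbb-b2, with its 95% interval from limma over 4 mice (black), without vehicle mouse 1 (open circles) and without vehicle mouse 2 (squares). All 8 intervals include 0, and without vehicle mouse 1 the values lie between -0.39 and 0.36.

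The rest of the erythroid program was read from 6 lists of 67 other genes, of which 43 were tested. None of the 43 passed an adjusted p of 0.05 (limma), 1 had an unadjusted p under 0.05 and was lower with AP, and 2 were higher, against 2.77% and 3.3% of all probes. The groups did not overlap for 7 genes that were lower with AP and 5 that were higher, against 20.4% and 18% of all probes. Vehicle mouse 1 was the highest for 18 of the 43, against 30.1% of all probes. The median log2 difference was -0.04, with 26 of the 43 below 0. Under the other scalings, filters and values the list medians ranged across 0 for red cell membrane (-0.20 to 0.05), red cell enzymes (-0.06 to 0.19) and iron uptake (-0.19 to 0.06). The ends of these ranges follow a shift of all probes alike. The median of all probes was -0.17 in the log2 table of the authors and 0.08 with median scaling. These changes of sign are therefore no change relative to other genes. With 1 mouse left out the list medians changed sign for the other globins (0.14 without vehicle mouse 1) and heme synthesis (0.22 without vehicle mouse 1). They also did so for red cell membrane (0.11 without vehicle mouse 2), red cell enzymes (-0.10 without vehicle mouse 2) and iron uptake (0.080 without AP mouse 2).

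Of the 8 enzymes of heme synthesis besides Alas2, 5 were highest in vehicle mouse 1. The median log2 difference of AP from vehicle over the 8 was -0.10 (-0.27 to -0.01 under the other scalings, filters and values). Alad was at 3.99 and 3.33 with vehicle and at 3.41 and 3.57 with AP, and Urod was at 6.13 and 5.47 with vehicle and at 5.64 and 5.87 with AP. ALAD takes the step that follows ALAS and UROD acts later in the pathway, and both genes were, like Alas2, highest in vehicle mouse 1. Fech, which inserts the iron, was at 5.26 and 4.91 with vehicle and at 4.87 and 4.96 with AP. Cpox, a later enzyme of the pathway, was at -0.08 and -0.39 with vehicle and at 0.37 and 0.10 with AP, with both AP-treated mice above (log2 difference 0.47, SE 0.24, adjusted p = 0.80). These enzymes are made in every tissue that makes heme, brown fat included.

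Of 17 other genes of the red cell membrane, 8 were tested. Rhag, Rhd, Kel, Add2, Icam4 and Cldn13 were not well above background on any array. Of the 8 tested, 3 were highest in vehicle mouse 1, and the median log2 difference was -0.04 (-0.11 over the 6 well above background on all arrays). Dmtn, which bundles actin at the membrane, was at 2.44 and 2.25 with vehicle and at 1.49 and 1.85 with AP (log2 difference -0.67, SE 0.24, adjusted p = 0.80). Epb41, protein 4.1, was at 4.40 and 4.03 with vehicle and at 4.84 and 4.83 with AP (log2 difference 0.62, SE 0.23, adjusted p = 0.80). The unadjusted p was 0.041 for Dmtn and 0.049 for Epb41, in opposite directions, and another probe of Epb41 gave 0.37 (unadjusted p = 0.14). Gypc was at 5.61 and 6.0 with vehicle and at 5.40 and 5.69 with AP, and the water channel Aqp1, which vessels also make, was at 6.22 and 6.85 with vehicle and at 6.39 and 6.61 with AP. Sptb, the spectrin of the skeleton, was at -4.25 and -1.39 with vehicle and at -1.54 and -3.15 with AP. Ank1, its ankyrin, was at -4.31 and -0.43 with vehicle and at -1.38 and -2.13 with AP. Both were lowest in vehicle mouse 1, where they were not well above background. Their order over the mice was that of the skeletal muscle gene Acta1, and a part of muscle in it was not tested. Without vehicle mouse 2 their log2 differences were 1.90 and 2.55, and the list median without that mouse includes them.

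Among 12 tested genes of red cell enzymes and maturation, 4 were highest in vehicle mouse 1, and the median log2 difference was 0.10. Hemgn, a nuclear protein of blood precursors, was at 7.21 and 7.08 with vehicle and at 8.44 and 7.94 with AP. Its log2 difference was 1.04 (SE 0.26, unadjusted p = 0.013, adjusted p = 0.80), the largest in these 6 lists among genes higher with AP. The values of the AP-treated mice lay above both vehicle-treated mice, which was not the order of the globin genes. Prdx2, an antioxidant enzyme of red cells, was at 6.40 and 6.49 with vehicle and at 6.08 and 6.10 with AP. Bnip3l, which clears mitochondria from maturing red cells, was at 4.22 and 4.14 with vehicle and at 4.43 and 4.69 with AP, and Ube2o, a ubiquitin ligase of reticulocytes, was at 3.02 and 2.83 with vehicle and at 3.31 and 2.87 with AP. Fam210b, which helps iron reach heme in mitochondria, was at 0.32 and -0.54 with vehicle and at 0.51 and 0.30 with AP.

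In the iron uptake list, 3 of 8 genes were highest in vehicle mouse 1, and the median log2 difference was -0.03. Tfrc, the transferrin receptor, was at 1.38 and 1.90 with vehicle and at -2.67 and 0.81 with AP. Both AP-treated mice were below the vehicle-treated mice, but the AP-treated mice were far apart, and the log2 difference was -2.57 (SE 1.18, adjusted p = 0.80). Without AP mouse 1 the Tfrc difference was -0.83, without AP mouse 2 it was -4.31, and another probe gave -1.71. Tfr2 was at 2.07 and -0.17 with vehicle and at 1.53 and 1.57 with AP, so the gap was within the vehicle group. The ferritin chains Fth1 and Ftl1 varied little, from 9.64 to 10.05 and from 9.24 to 9.58. Slc25a37, the iron importer of mitochondria, was at 1.61 and 1.1 with vehicle and at 1.54 and 1.88 with AP (log2 difference 0.36, and 0.01 on another probe), and Slc25a38, the glycine carrier for heme synthesis, was at 2.64 and 2.38 with vehicle and at 3.02 and 2.54 with AP.

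Of 10 erythroid regulators, Gata1, Klf1, Gfi1b and Bcl11a were not well above background on any array, and Nfe2 was so on 1 array. The 5 tested had a median log2 difference of -0.32 (-0.49 without vehicle mouse 1, -0.16 without vehicle mouse 2 and -0.20 with normexp). Of these 5, 1 was highest in vehicle mouse 1 (30.1% of all probes) and 4 in vehicle mouse 2, for which no such share was counted. Zfpm1, a partner of GATA factors, was at 2.04 and 2.35 with vehicle and at 1.80 and 1.76 with AP (log2 difference -0.42, SE 0.22, adjusted p = 0.80). Epor, the erythropoietin receptor, was at 0.66 and 0.99 with vehicle and at 0.24 and 0.77 with AP, Lmo2 was at 1.1 and 1.86 with vehicle and at 1.03 and 1.16 with AP, and Ldb1 was at 1.44 and 1.14 with vehicle and at 1.32 and 1.25 with AP. Tal1, another of the 5, was at -0.94 and -0.69 with vehicle and at -0.96 and -1.11 with AP.

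**Figure D4:**
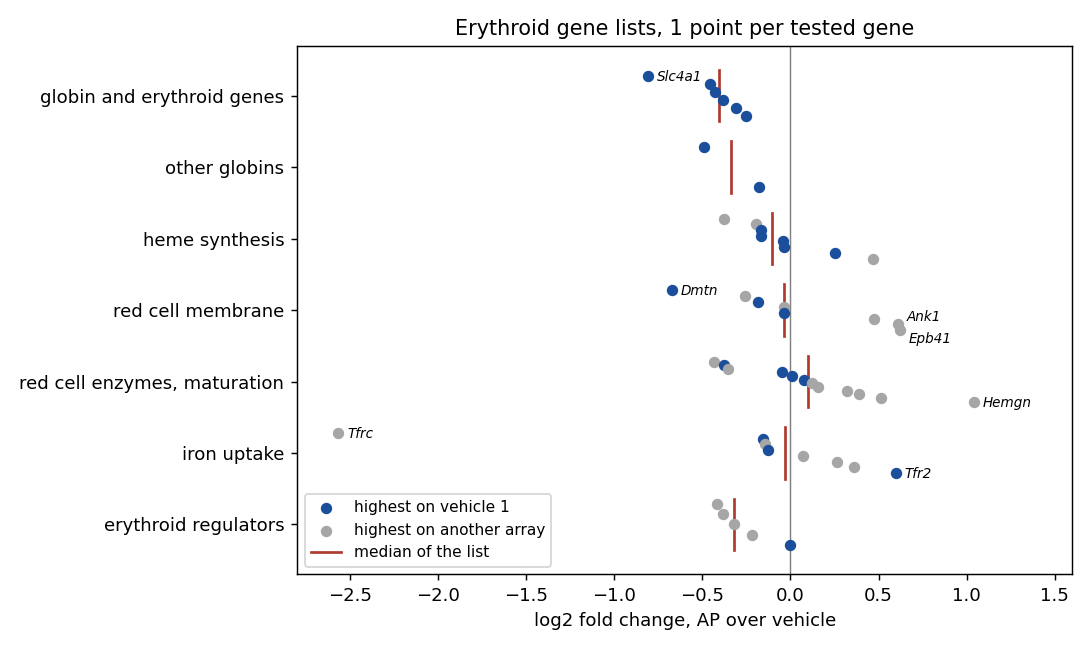
Log2 fold change of AP over vehicle (x axis) of each tested gene of the globin and erythroid genes and the 6 other erythroid lists, with the list median as a red line and genes beyond about 0.6 in size named. Blue points are genes highest in vehicle mouse 1, which are all 6 of the globin and erythroid genes, both other globins and 16 of the other 41 genes.

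The genes whose pattern was most like that of the 6 genes were found by the distance between profiles over the 4 arrays, each centred on its own mean, among 12132 other named genes well above background on all arrays. Hbb-b2 was the nearest, at a distance of 0.074, where the median gene was at 0.84. The next were Prp2 (0.077), Gga2 (0.081), Aldoa (0.089), Rmdn3 (0.097) and Slc37a4 (0.099). Utf1, Birc3, Gm13315 and Nrg2 completed the nearest 10, at distances of up to 0.114. Of these 10, Hbb-b2 was the only one in the erythroid lists. The 6 genes themselves lay at 0.14 for Hbb-bt to 0.46 for Slc4a1 from their mean, so many genes outside the erythroid lists were closer to that mean than its own members. Among listed genes, the platelet gene Gp9 ranked 80, Alad 194, Hbb-bs 330 and Ucp1 655. With 4 arrays, a profile of this kind is a short description and names no shared control.

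Other lists of blood and tissue cells were set beside the globin genes on each array. Of 12 platelet genes, 7 were tested, with a median log2 difference of AP from vehicle of -0.51 (-0.66 to -0.11 under the other scalings, filters and values, -0.11 with normexp, and -0.27 without vehicle mouse 2). The probe of Gp1bb entered the test only through the vehicle group. Among the other 6, well above background on all 4 arrays, both AP-treated mice lay below both vehicle-treated mice for 4, against 19.6% of all such probes. The summed level of the 7 genes was 8.24 and 13.4 with vehicle and 8.07 and 6.97 with AP, with Pf4 the brightest at 2.69 and 3.52 with vehicle and 2.77 and 2.43 with AP, while Itga2b, Gp1ba, Gp5 and Tubb1 were not well above background on any array. Ppbp was at -0.88 and -0.87 with vehicle and at -1.19 and -1.55 with AP, and Gp9 was at -1.85 and -2.48 with vehicle and at -2.99 and -2.60 with AP. Treml1 went the other way between the means, at -1.80 and -2.19 with vehicle and -2.32 and -0.97 with AP. Of the 6 genes well above background on all arrays, 2 were highest in vehicle mouse 1, and the difference of this count from that of the globin genes was not tested.

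White cell genes had other high mice. Of 5 neutrophil genes tested out of 12, 3 were highest in AP mouse 1, among them S100a9 at 3.07 and 2.47 with vehicle and 4.94 and 1.95 with AP and S100a8 at 0.67 and 0.37 with vehicle and 2.69 and 0.06 with AP. Their summed level, with Csf3r the brightest probe, was 97.7 and 79.5 with vehicle and 101.3 and 110 with AP, the median log2 difference was 0.67 (-0.67 without AP mouse 1, 2.17 without AP mouse 2 and 0.37 without vehicle mouse 2, and 0.36 over the 4 genes well above background on all arrays), and Ngp, Ltf, Mpo and Mmp9 were not well above background on any array. Of 7 lymphocyte and MHC class II genes tested out of 13, 6 were highest in vehicle mouse 2. Their median log2 difference was -0.64 (0.22 without vehicle mouse 2 and -1.40 without vehicle mouse 1). It was -0.80 to -0.37 under the other scalings, filters and values. H2-Eb1, the brightest, was at 4.30 and 5.82 with vehicle and at 4.45 and 4.39 with AP, the summed level was 55.7 and 160 with vehicle and 63.4 and 59.9 with AP, and Cd79a and Cd8a were not well above background on any array. Of 9 macrophage genes, 7 were highest in vehicle mouse 2, with a median log2 difference of -0.45 (0.0059 without vehicle mouse 2, -0.86 without vehicle mouse 1, -0.69 without AP mouse 1 and -0.19 without AP mouse 2) and a summed level of 40.8 and 56.4 with vehicle and 34.7 and 31.6 with AP. Itgam, the brightest, was at 4.21 and 3.82 with vehicle and at 2.85 and 3.42 with AP (log2 difference -0.88, SE 0.30, unadjusted p = 0.037, adjusted p = 0.80). The other two probes of Itgam gave -0.14 and -0.61 (unadjusted p = 0.64 and 0.15, limma) and were highest in vehicle mouse 2, so the probes disagreed. The highest globin level was in vehicle mouse 1. This mouse was the highest for 1 of 5 neutrophil, 1 of 7 lymphocyte and 1 of 9 macrophage genes, against 30.1% of all probes. No such share was counted for the other mice, and how white cells relate to the globin level was not tested.

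The 10 endothelial genes, all well above background on all arrays, had a median log2 difference of -0.05 and 1 gene highest in vehicle mouse 1. Their median was -0.32 and 0.12 without vehicle mouse 1 and 2. It was -0.22 to 0.04 under the other scalings, filters and values. The ends of this range follow a shift of all probes alike, with a median of -0.17 in the log2 table of the authors and 0.08 with median scaling. Egfl7, the brightest, was at 5.72 and 6.29 with vehicle and at 5.57 and 6.34 with AP, and the summed level was 116.5 and 159.8 with vehicle and 111.9 and 154.4 with AP. This sum was highest in vehicle mouse 2, and Egfl7 made up 47.8% of it over the 4 arrays. How vessel content relates to the globin level was not tested. Of the 12 brown adipocyte genes, 6 were highest in vehicle mouse 1 and 7 were lowest in vehicle mouse 2. Elovl3, a fatty acid elongase, was at 6.08 and -1.07 with vehicle and at 3.52 and 5.76 with AP, and Dio2, which activates thyroid hormone, was at 0.49 and 1.53 with vehicle and at -1.78 and 3.33 with AP, so both varied widely within the groups. Cidea was at 11.34 and 10.62 with vehicle and at 11.08 and 11.25 with AP. The summed level of the 12 genes was 8949 and 5946 with vehicle and 7320 and 8242 with AP. Their median log2 difference was 0.14 (0.30 and -0.14 without vehicle mouse 1 and 2). It was -0.03 to 0.23 under the other scalings, filters and values, and these ends follow the same shift of all probes. Vehicle mouse 1 was thus the highest for the 6 globin and erythroid genes and for 6 of the 12 brown adipocyte genes, and the part of this in either result was not tested.

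Genes that take up or break down free hemoglobin and heme had a median log2 difference of -0.15 over 9 tested genes (0.04 without AP mouse 1, -0.26 without AP mouse 2, -0.31 in the log2 table of the authors and -0.06 with median scaling), and of -0.10 over the 8 that were well above background on all arrays, of which 1 was highest in vehicle mouse 1. Hp, which binds free hemoglobin, was at 9.87 and 9.62 with vehicle and at 9.73 and 8.58 with AP. Hmox1, the inducible heme oxygenase, was lowest in vehicle mouse 1, at 1.25 and 2.37 with vehicle and 1.92 and 3.03 with AP (log2 difference 0.66, SE 0.56, adjusted p = 0.84). The Hmox1 difference was 0.11 without vehicle mouse 1 or AP mouse 2, and 1.22 without vehicle mouse 2 or AP mouse 1. Blvrb, which reduces biliverdin, was at 3.91 and 3.87 with vehicle and at 3.55 and 3.94 with AP, and Hmox2 was at 3.87 and 3.70 with vehicle and at 3.52 and 4.11 with AP. Cd163, the scavenger receptor for hemoglobin, was not well above background on any array. Hpx, which binds free heme, was well above background in both vehicle-treated mice, at -2.87 and -2.97, and in neither AP-treated mouse. The level was at least 1.72-fold higher with vehicle, against the lowest signal well above background on each AP array or that of the probe where higher (adjusted p = 0.80, limma). Its probe entered the test only through the vehicle group, so this difference was set in part by the filter on dim probes.

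**Figure D5:**
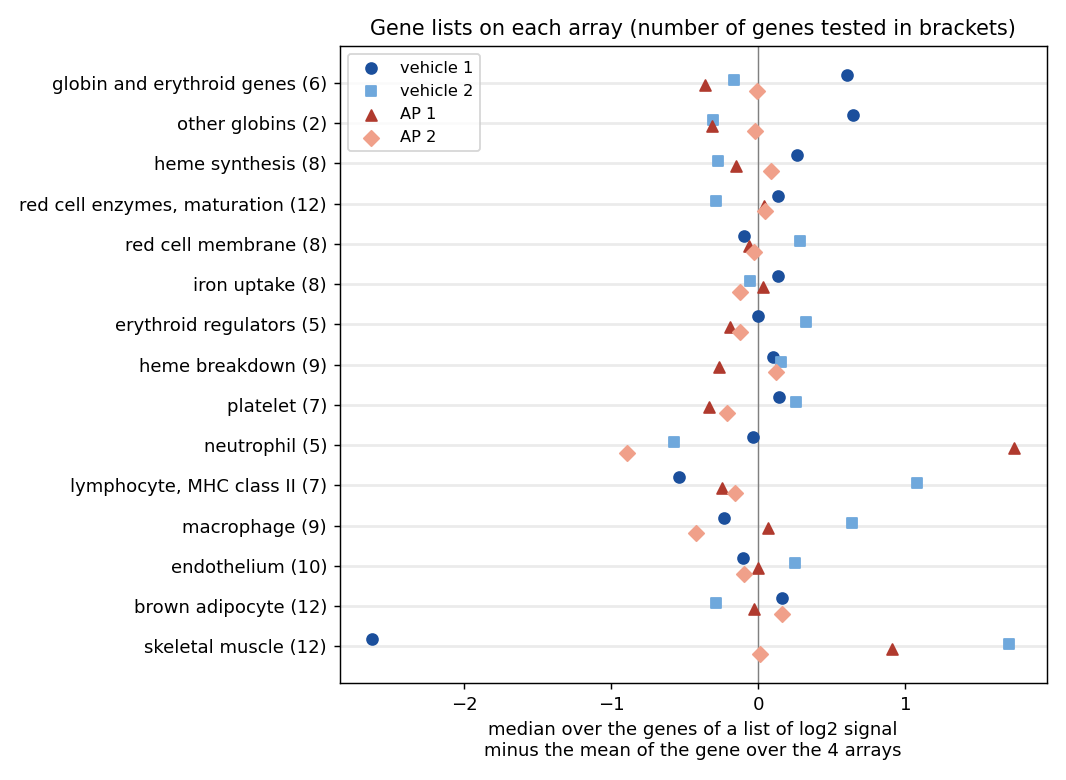
Median over the tested genes of each list of the log2 signal minus the mean of the gene over the 4 arrays (x axis), with 1 symbol for each mouse. Vehicle mouse 1 is far to the right for the globin and erythroid genes (6 of 6 highest) and the other globins, and far to the left for skeletal muscle (12 of 12 lowest).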

How the data were processed

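RNA of BAT from 4 Tg mice was hybridized to 4 one-color Agilent mouse arrays on 1 slide, read in 1 scan. The authors deposited the background-subtracted spot intensity of each array from Feature Extraction 10.7.1.1, not normalized between arrays. A second deposited file, of log2 values, has each probe centred on a value not given in the sources used here, and differences between its columns correlated with those of the intensities at r of at least 0.9998 over 24865 probes.

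Control spots and outlier spots were left out, the log2 processed signals were scaled by subtracting the log2 75th percentile of their array, and spots of a probe were averaged. That percentile was 118.9 and 158.7 with vehicle and 127.6 and 118.5 with AP, from 46.4% to 49.0% of spots were well above background, and 0 were saturated. A probe was tested where either group had it well above background in both mice (24970 of 55681). The test was limma 3.58.1 (lmFit, eBayes) in R 4.3.3, with Benjamini-Hochberg adjustment over all tested probes and a threshold of 0.05, and was tried on simulated data. Precision is limited by having 2 arrays a group, which are separate mice. Probes were named by accession through the RefSeq table of GRCm38.p6 (26582 named), and a gene with several probes is given by the brightest. The array design names another build, so this table gave only names and upstream sequences.

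The genes and lists were chosen with earlier results of these data known, so a list has counts and a median but no test. The genes named are the 8 genes, Trib3 and Ddit3, the 4 brightest and the 2 of largest difference in each list, and the 10 nearest profiles. Genes named for lacking signal, Hpx, Sptb, Ank1, Dio2 and Tal1 were added after their values were seen, and some listed genes are not reported here. The alternatives were normexp (offset 50), quantile and median scaling, no filter, a filter for signal on all arrays, a variance trend, the log2 table (with the non-overlap counts there and on probes well above background on all arrays added after seeing the data), a replicate block, the methods' t-test, the mean of probes, and leaving out each mouse. A block for slide or scan was not run, since there was 1 of each.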

Additional observations from a re-analysis of the deposited data

How the results depend on the processing

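No probe was called under any of the 14 alternatives, and 1515 probes had an unadjusted limma p under 0.05, 2611 without the filter on dim probes and 1003 to 2176 with 1 mouse left out (1003 without AP mouse 1). The methods' t-test on the same values gave 1478 probes at their threshold and 0 after Benjamini-Hochberg adjustment. With the replicate number as a block the counts were 0 and 1228, and with the numbers crossed, chosen after seeing the data because same-numbered mice deviated apart (r = -0.13), they were 0 and 1566. The numbers are not stated to pair the mice, and the block changed no other call.

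Leaving out 1 mouse moved the median log2 difference of the globin and erythroid genes from -0.41 to between -0.81 and 0.028, with Hba-a2 between -0.64 and 0.02, Hbb-bt between -0.91 and 0.05, Alas2 between -0.85 and 0.08 and Bpgm between -0.55 and 0.04, all reversed without vehicle mouse 1 (0.015, 0.053, 0.083 and 0.040). It moved the medians of heme synthesis to -0.36 to 0.22, red cell membrane to -0.40 to 0.11, red cell enzymes to -0.10 to 0.33, iron uptake to -0.22 to 0.080, platelet to -0.55 to -0.27, neutrophil to -0.67 to 2.17, lymphocyte to -1.40 to 0.22, macrophage to -0.86 to 0.0059, erythroid regulators to -0.49 to -0.16, heme breakdown to -0.26 to 0.043, other globins to -0.81 to 0.14, endothelium to -0.32 to 0.12 and brown adipocyte to -0.14 to 0.30, by its construction of fewer mice. The iron uptake median was -0.19 in the log2 table of the authors. The platelet median was -0.11 with normexp, -0.42 with median scaling, -0.66 in that table and -0.63 with the mean of probes, and the cause was not tested.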
